A study of Homo sapiens with 4 samples.

Results

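NRSF/REST binding was examined at 6 genes of the neurotrophin system: the ligand genes BDNF, NTF3 and NTF4, and the receptor genes NGFR, NTRK2 and NTRK3. They were taken as a list by function, out of 20163 protein-coding genes, and an NRSF/REST site was counted for a gene when it overlapped the gene or the 10 kb to either side of it. BDNF and NTRK3 carried sites at both SF-1 dosages, and the other 4 genes carried none at either. The basal list held 5 sites at these genes out of 5323, and the list at the increased dosage held 7 out of 5059. Together they mark 7 places, of which 5 were in both lists and 2 in the list of the increased dosage only.

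Neurotrophins are small secreted proteins that keep neurons alive, direct the growth of their processes and adjust their synapses. Brain-derived neurotrophic factor (BDNF) and neurotrophin-4 (NTF4) act mainly through the receptor tyrosine kinase TrkB, encoded by NTRK2, and neurotrophin-3 (NTF3) mainly through TrkC, encoded by NTRK3, while NGFR encodes p75, a receptor without kinase activity that binds all neurotrophins and their precursors. NRSF/REST is a zinc finger protein that binds the RE1 element and recruits corepressors, and it is known for keeping neuronal genes silent outside the nervous system.

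The chromatin came from the H295R/TR SF-1 line, derived from the human adrenocortical tumor line H295R, in which doxycycline switches on additional SF-1, the nuclear receptor that governs steroid production. Chromatin immunoprecipitated with a commercial antibody to NRSF/REST gave 1 library from untreated cells (basal SF-1 dosage) and 1 from cells kept for 3 days in doxycycline (increased SF-1 dosage), whose concentration differs between the labels and the published methods. Each dosage is a single library of 1 cell line, so the values have no replicate error and no test between dosages was made. The lists give the position, an order number and a score of 1000 for every site, without read counts, so the depth is unknown. Besides position, only the width and the order number describe a site. The order number has no stated meaning and is not taken as a rank of strength.

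The NRSF/REST consensus was read as CTGTCC and GGTGCTG in this order on either strand with 2 bases between them, and a match was allowed at most 2 mismatches over these 13 bases. The sequences below, from hg19, are the matches with at most 1 mismatch in the windows of BDNF and NTRK3, with 7 bases to either side. They are shown because 3 of these 8 matches lay in a site of both lists and the other 5 in no site. All run 5′ to 3′ in the direction of the consensus, and the capitals mark its 15 bases.
BDNF, chr11:27742220-27742248, plus strand, in a site: gttggctCTGTCCAAGGTGCTGaatggac
NTRK3, chr15:88406598-88406626, plus strand, in a site: ttgtttgCTGTCCCTGGTGCTGaaaacat
NTRK3, chr15:88709770-88709798, plus strand, in a site: ctgggctCTGGCCATGGTGCTGaaccccc
NTRK3, chr15:88805750-88805778, minus strand, in no site: tcagtccCTGTCAGTGGTGCTGcactagc
NTRK3, chr15:88742947-88742975, minus strand, in no site: ccagacaCTTTCCCCGGTGCTGgagttaa
NTRK3, chr15:88679893-88679921, plus strand, in no site: ggaagctCTGTCCATGGGGCTGatggtgg
NTRK3, chr15:88648471-88648499, plus strand, in no site: tctgcagCTCTCCTAGGTGCTGgagagta
NTRK3, chr15:88589715-88589743, minus strand, in no site: tggttgaCTGTCTCAGGTGCTGcctcatg
Each of the 8 windows of 29 bases occurs at 1 place only in the genome.

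Sites at 2 of 6 members compare with 13.9% of all protein-coding genes that had a site by the same rule at the basal dosage, 13.6% at the increased dosage and 10.5% at both. This background depends on the length of the gene. Among the 827 coding genes of 300 kb or more, which include NTRK2 (427 kb) and NTRK3 (397 kb), 53.7% had a basal site and 51.1% a site at the increased dosage. Among the 11243 genes of 10 to 100 kb, with BDNF (67.2 kb), NTF3 (89.4 kb) and NGFR (19.7 kb), the shares were 11.1% and 10.7%. NTF4, at 4.01 kb, belongs to the genes under 10 kb, of which 7.97% and 7.80% had a site. BDNF had 3 sites at the basal dosage, and 0.463% of genes of 10 to 100 kb had 3 or more. It had 4 at the increased dosage, and 0.0978% of these genes had 4 or more. Of these 4 sites, 1 of 149 bp lies within 500 bp of the widest BDNF site, and another lies past the 3′ end. The shares were not computed with such close sites merged. At NTRK3 there were 2 and 3 sites, and 19.6% of the genes of 300 kb or more had at least 2 in both lists.

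**Figure D1:**
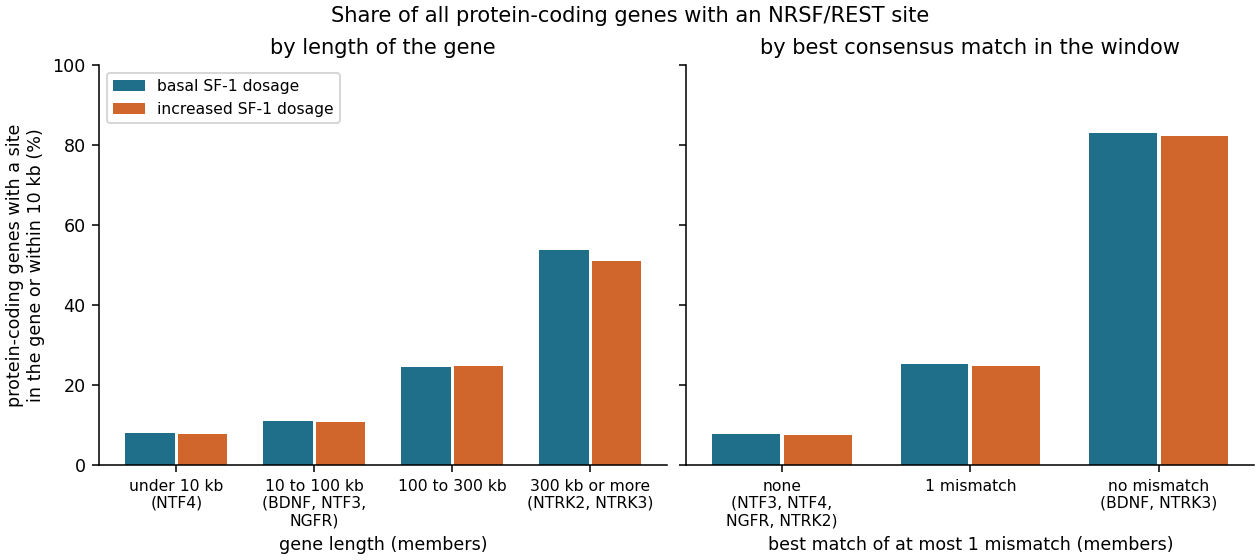
Share of all protein-coding genes with an NRSF/REST site in the gene or within 10 kb (vertical axis, percent) by gene length (left) and by the best consensus match of at most 1 mismatch in the same window (right), at the basal and increased SF-1 dosages, with the 6 members placed in their classes. The share rises with length to 53.7% and 51.1%, and is 83.0% and 82.4% where the window holds a match without mismatch, as at BDNF and NTRK3.

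BDNF (ENSG00000176697), the ligand of TrkB, lies on the minus strand of chromosome 11 from 27676440 to 27743605, and its 17 annotated transcripts start at 11 different positions, of which 4 lie near the 5′ end, 6 in a second group downstream and 1 by itself further on. Of its 4 places with a site, 3 lay within 2.68 kb of the 5′ end, measured to the midpoint, and the remaining one past the 3′ end. None lay at the second group of starts, where the transcript that the annotation takes as representative (BDNF-202) begins.

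The widest BDNF site covered chr11:27741951-27742499 at the basal dosage (549 bp, order number 650 of 5323) and chr11:27741901-27742549 at the increased dosage (649 bp, order number 675 of 5059). It thus reached 50 bp further on either side at the increased dosage. It contains the starts of BDNF-203, BDNF-204 and BDNF-211, which fall on 2 positions, and its midpoint lay 45 bp downstream of the nearest one. Over the whole lists, 5.67% of basal and 5.42% of increased-dosage sites contained a start of a protein-coding transcript. The match without mismatch printed above lies in this site, 9 bp from its midpoint, in the first exon of these 3 transcripts, which is untranslated. It is on the strand opposite to the gene. The site holds 23 CpG dinucleotides at the basal dosage, and its ratio of observed to expected CpG was 0.659, against a median of 0.200 over all basal sites (quartiles 0.0999 and 0.363).

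The second shared BDNF site lay 1.3 kb further downstream, at chr11:27740701-27741149 in the basal list (449 bp, order number 2188) and at chr11:27740751-27741099 in the other (349 bp, order number 2303). It was narrower by 50 bp on either side at the increased dosage. It overlaps the end of the untranslated first exon of BDNF-214 and otherwise lies in introns. No match of at most 3 mismatches was found in it, and CTGTCC occurred in it without GGTGCTG. That part alone is common, being present in 72.7% of the 337 basal and 68.3% of the 278 increased-dosage sites with the same width. The site was rich in G and C, with 69.9% at the basal dosage against a median of 45.5% (quartiles 39.2% and 53.2%) over all basal sites, and a CpG ratio of 0.771. The 120 bases around its midpoint, on the plus strand, are given here with their 11 CpG dinucleotides in capitals.
BDNF, chr11:27740865-27740984: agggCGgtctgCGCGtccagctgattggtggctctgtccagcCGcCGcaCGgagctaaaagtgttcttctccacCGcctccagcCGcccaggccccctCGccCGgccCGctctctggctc

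The third shared place was past the 3′ end of BDNF, with its midpoint 4865 bp beyond it, inside the gene BDNF-AS, a long non-coding RNA transcribed from the other strand. The site measured 349 bp at the basal dosage (chr11:27671401-27671749, order number 2588) and 249 bp at the increased dosage (chr11:27671451-27671699, order number 2691). It holds no match to the consensus. The parts of the consensus were found in the same order 13 bases apart, with 1 mismatch in each, and a further copy of GGTGGTG puts the right part at 16 bases as well. Parts at other distances (0 to 20 bases, at most 1 mismatch in each) were present in 24.8% of basal and 24.1% of increased-dosage sites without the consensus. The site also holds the SF-1 consensus, read as CAAGGACA, CAAGGCCA or CAAGGTCA on either strand without mismatch. The sequence below shows, in capitals, this SF-1 match and after it the parts at 13 bases.
BDNF, chr11:27671541-27671612, plus strand: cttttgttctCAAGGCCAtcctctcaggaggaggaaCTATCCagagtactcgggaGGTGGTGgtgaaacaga

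A further BDNF site was in the list of the increased dosage only, at chr11:27742751-27742899, 780 bp from the 5′ end in the intron that follows the first exon. It measured 149 bp and had order number 3685. The widest BDNF site of that list, which ends at 27742549, lay within 500 bp of it, so the 2 count as 1 when such sites are merged. It holds no match of at most 3 mismatches, and the parts 6 bases apart with 1 mismatch in each. Sites of this width in that list overlapped a basal site in 20.6% of cases (148 of 720, 95% Wilson interval 17.8 to 23.7%), so absence from the other list is usual at this width. All 3 sites in the first 3 kb of BDNF also lie inside a long non-coding gene of the same strand (ENSG00000255496), none of whose exons is there.

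**Figure D2:**
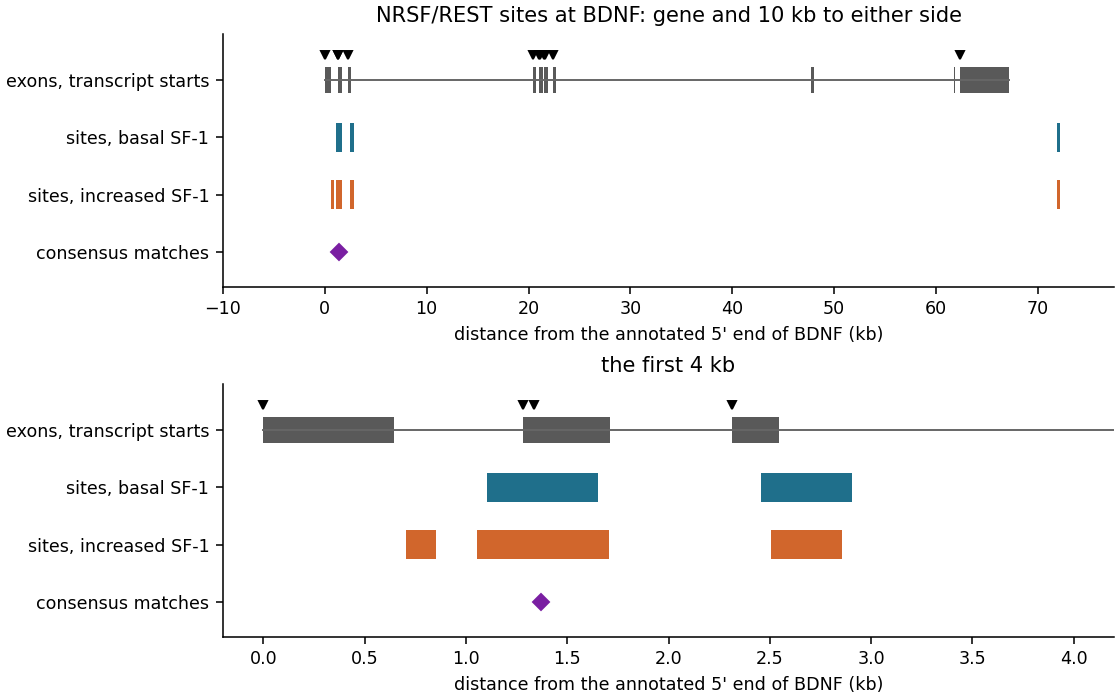
Sites at BDNF against the distance from the annotated 5′ end (horizontal axis, kb, in the direction of transcription), for the whole window (top) and the first 4 kb (bottom), with exons and transcript starts of all 17 transcripts, sites at the basal and increased SF-1 dosages, and the match without mismatch (diamond). Very narrow features are drawn at a minimum width. The match, 1.37 kb from the 5′ end, lies within the site that covers 2 of the 4 start positions near the 5′ end, and 1 site, at 780 bp, is seen at the increased dosage only.

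NTRK3 (ENSG00000140538), which encodes TrkC, lies on the minus strand of chromosome 15 from 88402982 to 88800022, with 19 annotated transcripts. Its shared sites stood at opposite parts of the gene, and none contained a transcript start. The first was in intron 5 of the 20-exon transcript that the annotation takes as representative, 90.1 kb from the 5′ end of the gene. It covered chr15:88709501-88710249 at the basal dosage (749 bp, order number 900) and chr15:88709501-88710149 at the increased dosage (649 bp, order number 746). Its left edge was the same in both lists, and the right edge lay 100 bp further in at the increased dosage. It holds the match with the substitution T4G, where position 1 is the first C of CTGTCC and the base of the consensus is given first.

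The intronic site holds the SF-1 consensus too, CAAGGTCA on the minus strand in both lists, 223 bases beyond the NRSF/REST match. A further SF-1 match, CAAGGACA, fell within the wider basal site only. Together with the site past the 3′ end of BDNF this makes 2 of 5 basal and 2 of 7 increased-dosage sites with an SF-1 match, against 11.4% and 11.5% over the whole lists. Wider sites have more room for such a match, and binding of SF-1 itself was not analysed here. The stretch from the NRSF/REST match to the SF-1 match, both in capitals, reads as follows on the plus strand.
NTRK3, chr15:88709767-88710032: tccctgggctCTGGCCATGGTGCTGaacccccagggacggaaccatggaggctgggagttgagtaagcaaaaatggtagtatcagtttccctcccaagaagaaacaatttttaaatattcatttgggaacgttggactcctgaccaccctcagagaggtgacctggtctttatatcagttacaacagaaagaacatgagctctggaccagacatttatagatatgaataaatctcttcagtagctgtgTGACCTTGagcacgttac

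The second shared NTRK3 site was at the far end of the gene, 393 kb from its 5′ end and with its midpoint 3718 bp before its 3′ end. It covered chr15:88406401-88406999 at the basal dosage (599 bp, order number 1187) and chr15:88406351-88407049 at the increased dosage (699 bp, order number 1214). As at the widest BDNF site, both edges lay 50 bp further out at the increased dosage. The site falls in the long last exon of 2 transcripts, in its untranslated part, and holds the match without mismatch on the strand opposite to the gene, 88 bp from the midpoint. In both lists few sites had their midpoint in an untranslated exon of a protein-coding transcript (3.89% in the basal list and 3.91% in the other), and this site and the widest BDNF site are among them. Its CpG ratio of 0.236 was close to the median of the list, unlike that of the BDNF site.

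Another NTRK3 site was in the list of the increased dosage only. It lay in intron 3 of the same transcript, at chr15:88752451-88752549, 47.5 kb from the 5′ end, and with 99 bp it has the smallest width in the list (order number 4306). Sites of this width overlapped a basal site in 11.2% of cases (75 of 671, 9.01 to 13.8%) and held the NRSF/REST consensus in 3.58% (2.42 to 5.27%). It holds no match of at most 3 mismatches, no parts at other distances, neither part alone without mismatch, and no SF-1 match. Its whole sequence on the plus strand is given because none of these elements, the only ones searched for, was found in it.
NTRK3, chr15:88752451-88752549: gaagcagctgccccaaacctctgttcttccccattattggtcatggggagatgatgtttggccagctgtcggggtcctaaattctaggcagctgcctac

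**Figure D3:**
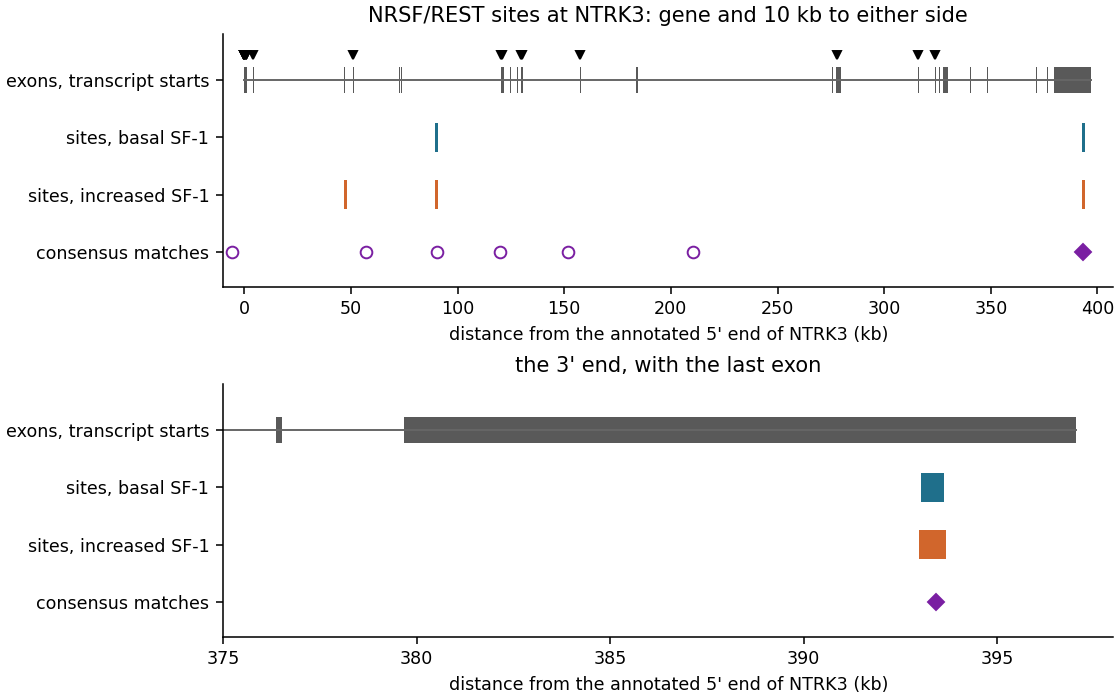
Sites at NTRK3 against the distance from the annotated 5′ end (horizontal axis, kb, in the direction of transcription), for the whole window (top) and the 3′ end (bottom), with exons and transcript starts of all 19 transcripts, sites at the basal and increased SF-1 dosages, and consensus matches without mismatch (diamond) or with 1 mismatch (circles). Very narrow features are drawn at a minimum width. Of 6 matches with 1 mismatch only that at 90.2 kb coincides with a site, and the match at 393 kb lies in a site of both lists inside the last exon.

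Across the members, 5 of 5 basal and 5 of 7 increased-dosage sites overlapped a site of the other list, against 64.5% and 67.9% of all sites. All 5 shared places are at least 249 bp wide, a width at which most sites of these lists are shared (71.2% of sites of 249 bp at the increased dosage, and 100% of the 196 basal sites of 549 bp). Between the lists, 2 of the shared places were wider at the increased dosage by 100 bp and 3 were narrower by 100 bp. Over 3327 pairs of sites that overlap one to one the median width difference was 0 bp, with quartiles of -50 and 50 bp. The order number, as a percent of the list, moved by 1.13 to 4.57 percentage points in size at these places, and the median size of the move over the pairs was 2.35 points.

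**Figure D4:**
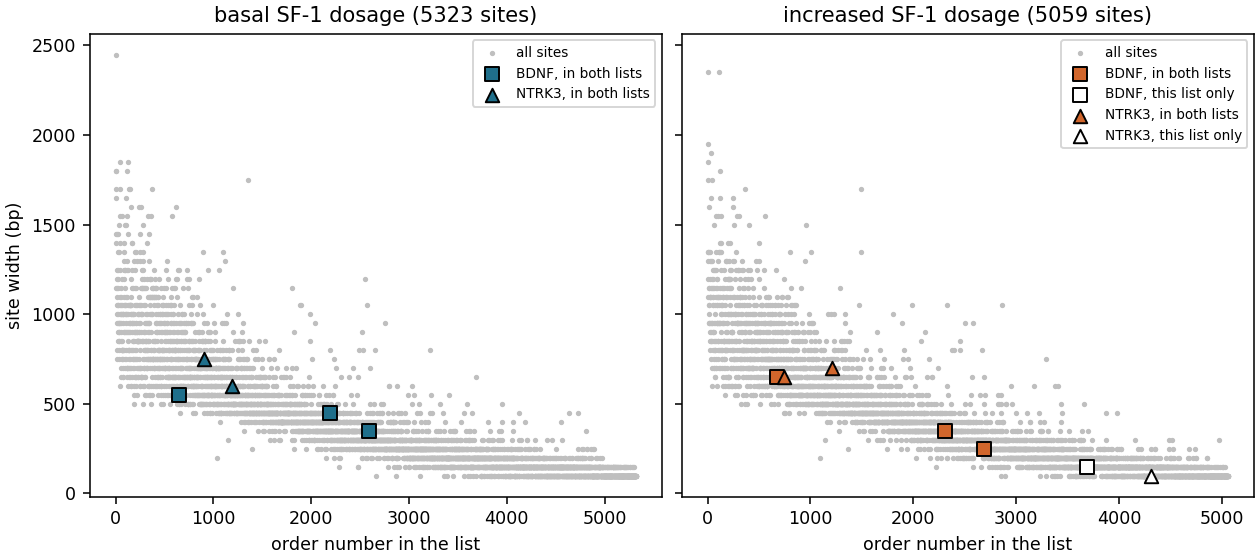
Width of each NRSF/REST site (vertical axis, bp) against its order number in the list (horizontal axis), for the basal list (left) and the list of the increased dosage (right), with the sites at BDNF (squares) and NTRK3 (triangles) over all sites (grey). The 3 sites with the consensus have order numbers between 650 and 1214, those without it lie further down, and both sites found in 1 list only (white symbols) are 149 and 99 bp wide.

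The member sites with and without the consensus differed in width and order number. The consensus was present in 3 of 5 basal and 3 of 7 increased-dosage sites, against 40.7% and 42.1% of all sites. The sites that hold it were 549 to 749 bp wide and stood at order numbers 650 to 1214. The sites that do not were 99 to 449 bp wide with order numbers from 2188 to 4306. In the whole lists this was a tendency of the medians. Where the best match had no mismatch, the median basal width was 699 bp and the median order number 774.5, and with 3 mismatches these were 349 bp and 2387.5. Widths overlapped there, as 56.7% of the 337 basal sites of 449 bp and 43.8% of the 308 of 349 bp held the consensus.

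The genome sequence gives the other side of this comparison, namely how many matches in the members' windows were without a site. Matches without mismatch numbered 2, and both lay in a site of either list. Genome-wide, 74.5% of 816 such matches lay in a basal site and 74.8% in a site at the increased dosage. Matches with 1 mismatch numbered 6, all at NTRK3, and 1 of them lay in a site, while 912 of 8057 genome-wide (11.3%) lay in a site of both lists. Matches with 2 mismatches numbered 52, and 0 of them lay in a site, where the genome-wide shares were 0.887% and 0.850%.

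In the genome as a whole, the share of matches in a site differed between substitutions. Here a match is called bound where it lies in a called site and unbound where it lies in none. Whether NRSF/REST is absent from unbound matches was not tested. Of the 437 matches with T4G alone, the form bound in intron 5 of NTRK3, 21.3% lay in a basal site. Among the unbound NTRK3 matches, that with T11G is of a form found in a basal site in 0.361% of cases, C6A in 1.26%, G3T in 2.48% and C6T in 14.4%. The match with G3C belongs to a form with a larger share than the bound one, 36.3% of 322, and no site was called there. Positions outside the fixed bases were compared as well. In the 601 matches without mismatch that lay in sites of both lists, 6 of the flanking positions had the same base in at least 50% of cases, namely the 4 before the consensus and the 2 after it. The bound matches at BDNF and in intron 5 of NTRK3 carried this base at 5 of the 6 positions, and the match in the last exon of NTRK3 at 3. The matches at BDNF and in the last exon of NTRK3 are themselves among the 601. Since the bases were taken from bound matches of these lists, the counts are a description and no test. The unbound matches with C6A, G3T, T11G and G3C had 3 and that with C6T had 0. Genome-wide the median was 4 for matches with 1 mismatch in sites of both lists and 2 for those in neither.

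**Figure D5:**
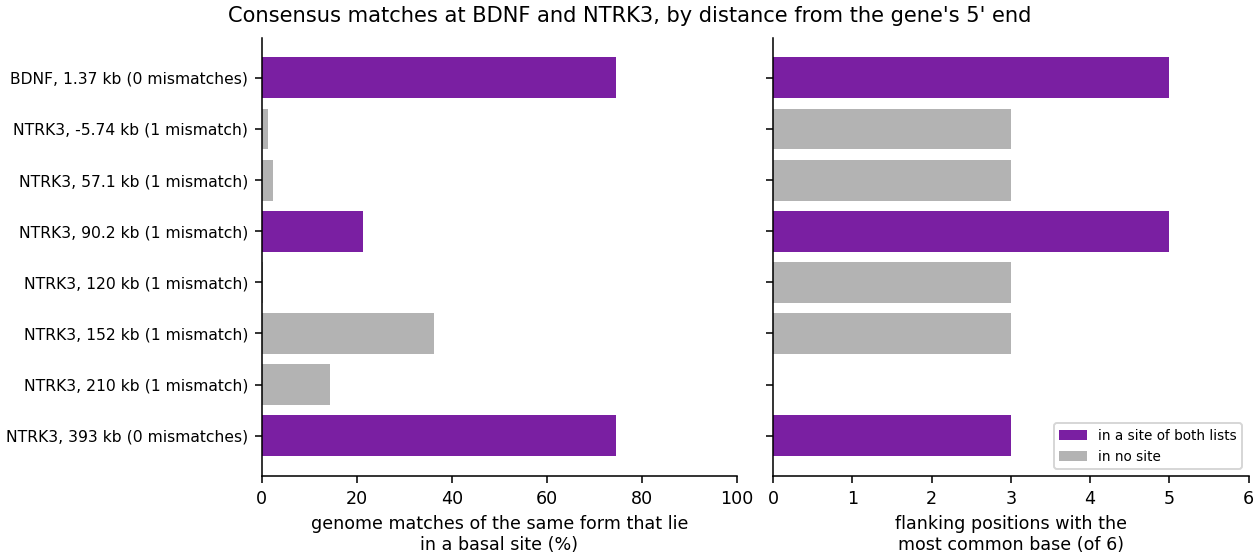
The 8 consensus matches of at most 1 mismatch at BDNF and NTRK3, by distance from the gene's 5′ end, with the percent of all genome matches with the same substitution, or with none, that lie in a basal site (left, horizontal axis) and the number of 6 flanking positions with the most common base (right). Matches in a site of both lists are filled purple and those in no site grey. The match at 90.2 kb, in a site, has 5 of 6 positions. The match at 152 kb, in no site, has the higher share on the left, 36.3% against 21.3%, with 3 positions.

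NTF3, NTF4, NGFR and NTRK2 had no site in their windows, and none of their windows holds a match of at most 1 mismatch. NTRK2 (ENSG00000148053, chr9:87283290-87710666) stands beside NTRK3 in length, with 58 annotated transcripts from 30 start positions and a window of 447 kb, and had 15 matches with 2 mismatches, none of them in a site. Of coding genes of 300 kb or more without a match of at most 1 mismatch, 35.1% of 251 had a basal site, while of those with a match without mismatch, like NTRK3, 88.0% of 108 had one. The basal site nearest to NTRK2, 149 bp wide, lay 60.9 kb away, and the nearest at the increased dosage, 99 bp wide, lay 139 kb away on the other side.

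For the 3 shorter genes the picture was the same. NTF3 (ENSG00000185652, chr12:5541274-5630702) had 5 matches with 2 mismatches and its nearest site 494 kb away, in both lists the same interval of 149 bp, 19429 bp past the 3′ end of the potassium channel gene KCNA1. NTF4 (ENSG00000225950, chr19:49564323-49568333), the other ligand of TrkB, had 2 such matches and its nearest site 54.8 kb away in PPFIA3, at both dosages. This is the site closest to the limit of 10 kb among those left out, and that past the 3′ end of BDNF is the farthest one included. NGFR (ENSG00000064300, chr17:47572655-47592370) had 4 such matches and its nearest site 664 kb away. Of all coding genes whose window holds no match of at most 1 mismatch, 7.84% of 15286 had a basal site and 7.54% a site at the increased dosage.

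The remaining genes of the pathway were counted by the same rule. Of 31 genes for neurotrophin processing, co-receptors and adaptors, 10 had a basal site, 9 a site at the increased dosage and 8 both, or 25.8% where all coding genes gave 10.5%, with a median gene length of 66.2 kb against 27.2 kb for all coding genes. The widest basal sites were at SHC3, an adaptor of Trk receptors in neurons (1149 bp, 1 mismatch), and at LINGO1, a co-receptor of p75 (999 bp, no mismatch). Among the receptors related to sortilin, SORCS3 (849 bp) and SORCS2 (549 bp) held a match without mismatch and SORCS1 (499 bp) held none of at most 3. The convertases PCSK2 (849 bp) and PCSK1 (699 bp), which cut precursors of secreted peptides, and the adaptor SH2B2 (449 bp) complete the 8. By length, SORCS1, SORCS2 and SORCS3 are genes of 300 kb or more, of which 43.9% had sites in both lists. PCSK2, SHC3 and LINGO1 are genes of 100 to 300 kb, of which 18.1% had, and PCSK1 and SH2B2 genes of 10 to 100 kb, of which 8.09% had.

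The GDNF family, ligands and receptors that serve neurons much as neurotrophins do, had sites in both lists at 3 of 10 genes, or 30.0%, beside the same 10.5% of all coding genes. These were GFRA1, a co-receptor for GDNF (649 bp at the basal and 749 bp at the increased dosage), the ligand gene ARTN (599 bp in both) and RET, the receptor kinase (149 and 299 bp). Of 5 receptor kinase genes related to the Trk family, only ROR1 had sites in both lists, of 249 bp each, and by its length it falls among the genes of 300 kb or more, of which 43.9% had sites in both, while MUSK had a basal site of 99 bp only.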

How the data were processed

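The authors mapped the reads of each NRSF/REST library to hg19 with ELAND (CASAVA 1.6 per the labels) and deposited 1 list of sites per library, called separately. The caller and its settings are given for SF-1 sites and not separately for NRSF/REST, so those used for these lists are not given in the sources used here. The 2 input DNA libraries were not analysed here. The deposited score is 1000 for every site and was not used, and the order number has no stated meaning. From the lists, starts were counted from 1 and gene windows were taken from GENCODE release 44 on GRCh37, the build of the files, whose chromosome ends no site exceeds. Sites that overlapped by 1 bp or more were taken as shared. The genome was searched for the consensus with Python 3.11.15 and numpy 2.4.6; intervals are 95% Wilson intervals from scipy 1.17.1 and cover counting error over sites only. Figures were drawn with matplotlib 3.10.9. On simulated sequences and windows 200 of 200 planted answers were recovered in each of 3 steps. The members and lists were chosen with earlier results of these data known. All members and their sites are named; other genes are named where they overlap or neighbour a site, and from the lists up to 12 with a site at both dosages; KCNA1, PPFIA3 and MUSK were added after their values were seen. With 1 library per dosage no test was made.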

Additional observations from a re-analysis of the deposited data

How the results depend on the processing

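No paired analysis was possible because each dosage has 1 library. BDNF and NTRK3 were the members with a site at both dosages under every alternative run: windows of 0, 2 and 50 kb, boundaries from protein-coding transcripts, site midpoints, the widest and the first 50% of each list, and merging within 500 bp. The number of member sites at the increased dosage was 4 with the widest 50% and 4 with the first 50% of the list, in place of 7, since narrow or late sites are left out by construction. The share of all coding genes with a site was 25.9% and 25.3% at 50 kb, and 8.35% and 7.90% with the widest 50% of each list, at the basal and increased dosages. Of the alternatives, 64 stayed within 1.5 times the reported value and 6 did not. Without read counts, a place found in 1 list only may have fallen just short of the limit in the other, which was not tested.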
